A study of Mus musculus with 52 samples.

Results

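The accessibility response to loss of the DNA-binding domain of KDM2A was set against the response to loss of the same domain of KDM2B, promoter by promoter, in mouse embryonic stem cells (mESCs). The values came from 12 of the 52 samples of the series, which are the calibrated ATAC-seq libraries of 2 conditional lines, Kdm2a-CXXC fl/fl and its counterpart Kdm2b-CXXC fl/fl, 3 untreated and 3 tamoxifen-treated in each. ATAC-seq uses the Tn5 transposase to tag accessible DNA, and each of 20633 promoters was measured over an interval of 400 bp. In both lines a CreERT2 recombinase expressed from the Rosa26 locus is switched on by tamoxifen (800 nM for 96 h), and it deletes the floxed exon for the ZF-CxxC domain of Kdm2a or of Kdm2b. Untreated cells carry the floxed alleles and express both proteins with their ZF-CxxC domains, and treated cells keep the other paralogue. Kdm2a-CXXC cells were made by inserting loxP sites around a Kdm2a exon in Rosa26::CreERT2 mESCs. The same insertion in Kdm2b-CXXC cells gave the Kdm2a/b-CXXC line, which loses both domains and has 4 libraries a group. In the last line of the series, Kdm2a/b-JmjC, deletion of exons for the JmjC demethylase domain removes the long forms of both proteins. Their short forms, which lack that domain and keep the ZF-CxxC domain, remain. This line has 3 libraries a group. Each genotype is represented by 1 line, so the paralogue lost and the line cannot be told apart. No treated cells without floxed alleles are analysed here, so the loss of the domain and the tamoxifen treatment cannot be told apart either.

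KDM2A and KDM2B are paralogous F-box proteins with a JmjC domain that removes methyl groups from histone H3 lysine 36. Their ZF-CxxC domain binds CpG dinucleotides that are not methylated, and it brings both proteins to CpG islands, the CpG-rich elements found at most mammalian gene promoters. KDM2B is also the subunit that brings a PCGF1-containing Polycomb repressive complex, which ubiquitylates histone H2A, to CpG islands, and KDM2A is known for binding to CpG islands and to heterochromatic repeats. Of the promoters, 16957 had a mean of at least 5 reads per 1000000 promoter reads (RPM) over the 12 libraries and were tested. Of these, 11253 were CpG-rich, meaning that the interval had a GC fraction of 0.5 or more and held no fewer than 0.6 of the CpGs its C and G content predicts, and 5704 were not.

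Promoter reads numbered 1.83 to 3.03 M (M, 1000000) per library, and the median promoter had 64 to 108 reads. Levels below are in RPM, and a change is a difference of log2(value + 1), treated minus untreated within a line, which understates the change of promoters with low values. The difference between responses is the change in Kdm2a-CXXC minus the change in Kdm2b-CXXC. It is above 0 where a promoter became more accessible, relative to the promoter total, in Kdm2a-CXXC than in Kdm2b-CXXC cells. Scaling to the promoter total removes a change shared by all promoters. On the Drosophila spike-in scale of the deposited tables the median change was −0.18 in Kdm2a-CXXC and 0.10 in Kdm2b-CXXC, which puts the median difference between responses at −0.27, and directions below are relative to the promoter total. The calibrated promoter total gave a difference between lines of −0.28 (exact two-sided permutation p = 0.395). That test ignores replicate numbers. The log2 totals (in M) of replicates 1 to 3 were 1.09, 1.20 and 1.33 in untreated and 0.81, 1.03 and 1.22 in treated Kdm2a-CXXC libraries. In Kdm2b-CXXC they were 1.56, 0.80 and 1.081, then 1.68, 0.99 and 1.075. Replicates ranked alike in both treatments of each line, so this p cannot tell whether the shift exceeds the spread within replicate numbers. A test by replicate number was not run on the total. The permutation test over 12 libraries has 400 arrangements and a smallest p of 0.005, and within 1 line it cannot go below 0.1.

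No promoter passed the test as sensitive to 1 paralogue and not the other. With limma, 0 of 16957 promoters (0.0%) had a difference between responses with a Benjamini-Hochberg adjusted p under 0.05 and over 1.4-fold, and the smallest adjusted p was 0.126. An unadjusted p under 0.05 was found at 1020 promoters (6.02%), of which 515 (3.04%) were higher in Kdm2a-CXXC and 505 (2.98%) higher in Kdm2b-CXXC. Tests on whole reads also gave 0, with 1034 promoters under an unadjusted p of 0.05 by edgeR and 727 by DESeq2. The limma fit with the replicate number as a block gave 2 (Gm973 and Qrfpr). Within each line, limma found 0 changed promoters (0.0%) in Kdm2a-CXXC, with 1184 (6.98%) under an unadjusted p of 0.05, and edgeR and DESeq2 found 0 there as well, with 1117 and 802. In Kdm2b-CXXC 1 promoter (0.0059%) fell, that of Lmo7, with 1163 (6.86%) under an unadjusted p of 0.05. The fit with the replicate block gave 1 changed promoter in Kdm2a-CXXC and 3 in Kdm2b-CXXC.

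Single libraries decided some calls. Without Kdm2a-CXXC untreated replicate 3, 3 promoters had a difference past both thresholds (Gm973, Prss38 and Sox2ot). There was 1 (Prss38) without Kdm2b-CXXC tamoxifen replicate 1 and there were 2 (Gm973 and Qrfpr) without Kdm2b-CXXC tamoxifen replicate 3, and leaving out any other library gave 0. Without Kdm2a-CXXC tamoxifen replicate 1 the count in Kdm2a-CXXC was 3 (Alg10b, Brinp1 and Spata31). In Kdm2b-CXXC the count was 4 without untreated replicate 1, 2 without untreated replicate 2 or 3, and 2 without Kdm2a-CXXC tamoxifen replicate 2.

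The size of difference that could have been missed varied between promoters. The median difference was 0.0012, and the middle 90% of promoters lay between −0.48 and 0.51. The 95% interval of a single promoter had a median half-width of 0.43 on the log2 scale. At 5242 promoters (30.9%) the whole interval lay within 1.4-fold either way, and at 13203 (77.9%) it lay within 2-fold, so for the rest a difference of that size was not excluded by the interval. Replicate libraries of a group had a median SD of 0.15 to 0.18 per promoter, and 45.0% to 48.4% of their variance was the size that read counting alone would give.

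Across the 16957 promoters the 2 measured responses were only weakly correlated. Pearson's r between the Kdm2a-CXXC and Kdm2b-CXXC changes was 0.071 and Spearman's rho 0.058, and 52.0% of promoters had changes of the same sign. Promoters are not independent replicates and share libraries, base composition and depth, so no p is given. The spread between libraries in each change also lowers r, so a low r cannot show that the responses are unrelated. All 3 treated libraries lay above all 3 untreated libraries at 974 promoters (5.74%) in Kdm2a-CXXC and 1039 (6.13%) in Kdm2b-CXXC, and below them at 943 (5.56%) and 1053 (6.21%). Such a separation occurred in opposite directions at 57 promoters (0.336%) higher in Kdm2a-CXXC and lower in Kdm2b-CXXC, and at 56 (0.33%) with the reverse. It occurred in the same direction at 58 (0.342%) and 71 (0.419%). Promoters separated in opposite directions were thus about as many as those separated in the same direction.

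**Figure D1:**
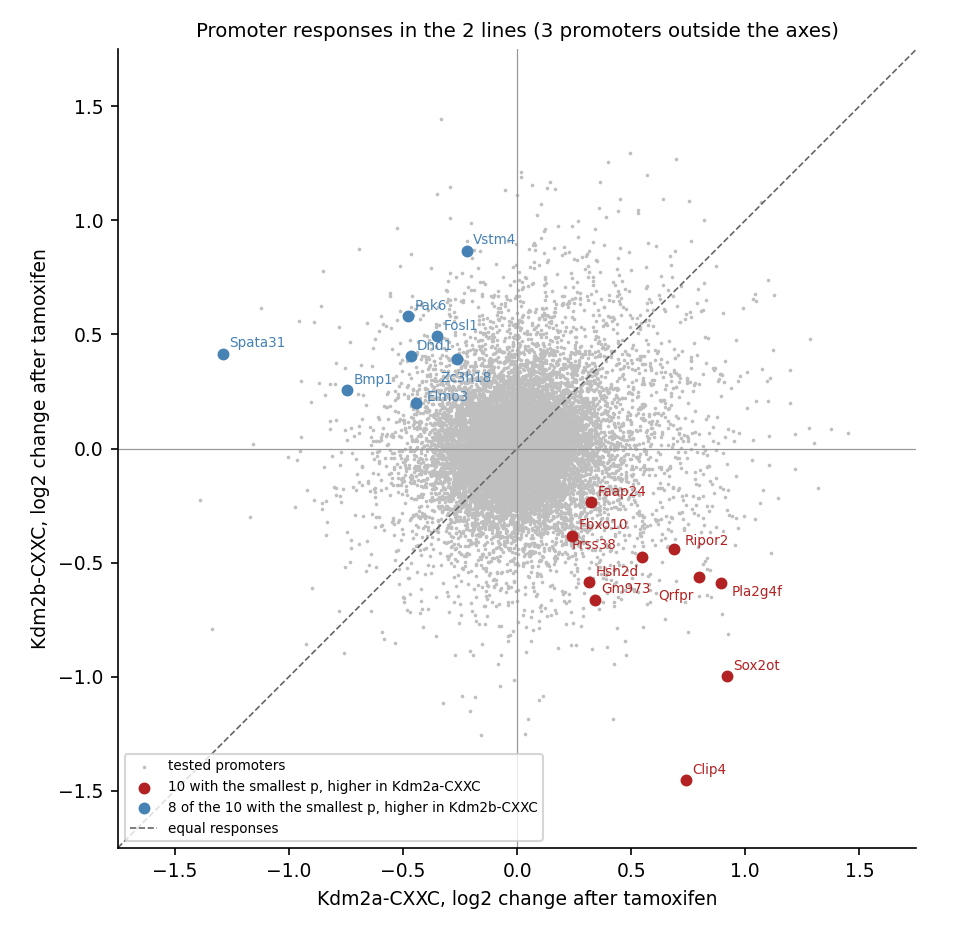
Change after tamoxifen in Kdm2a-CXXC (x axis) against the change in Kdm2b-CXXC (y axis), both as log2 RPM + 1, for the 16957 tested promoters, 3 of which lie outside the axes. The points form a round cloud around 0 with r = 0.071, and 18 of the 20 promoters with the smallest p for the difference, coloured and named, lie in the upper left and lower right.

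The promoters with the smallest p in each direction are described next, although none passed the adjusted test. The sequences of 4 promoters are shown because the ZF-CxxC domain binds CpG dinucleotides. Gm973 and Qrfpr had the smallest p of those higher in Kdm2a-CXXC, and Lmo7 is the promoter that fell in Kdm2b-CXXC. Zc3h18 is higher in Kdm2b-CXXC, and its window is more CpG-dense than that of Spata31, the other one read in that direction. Each window runs from 250 bases before to 50 after the annotated start in the RefSeq annotation of GRCm38.p6, and is written 5′ to 3′ on the strand of the gene with each CpG in capitals. The windows are chr1:59516014-59516313 (plus strand), chr3:36222226-36222525 (minus strand), chr8:122376366-122376665 (plus strand) and chr14:101729678-101729977 (plus strand).
Gm973: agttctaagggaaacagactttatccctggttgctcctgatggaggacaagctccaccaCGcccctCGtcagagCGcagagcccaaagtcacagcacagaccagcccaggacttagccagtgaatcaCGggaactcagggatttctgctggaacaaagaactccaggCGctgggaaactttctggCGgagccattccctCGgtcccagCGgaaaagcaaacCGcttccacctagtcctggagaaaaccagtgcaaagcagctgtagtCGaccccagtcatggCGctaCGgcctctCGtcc
Qrfpr: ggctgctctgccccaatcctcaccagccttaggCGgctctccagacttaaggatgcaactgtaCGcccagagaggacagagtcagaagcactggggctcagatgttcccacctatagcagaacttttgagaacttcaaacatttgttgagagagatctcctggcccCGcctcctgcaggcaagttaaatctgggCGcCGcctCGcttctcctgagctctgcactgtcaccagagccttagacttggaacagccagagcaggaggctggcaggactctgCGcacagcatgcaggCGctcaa
Zc3h18: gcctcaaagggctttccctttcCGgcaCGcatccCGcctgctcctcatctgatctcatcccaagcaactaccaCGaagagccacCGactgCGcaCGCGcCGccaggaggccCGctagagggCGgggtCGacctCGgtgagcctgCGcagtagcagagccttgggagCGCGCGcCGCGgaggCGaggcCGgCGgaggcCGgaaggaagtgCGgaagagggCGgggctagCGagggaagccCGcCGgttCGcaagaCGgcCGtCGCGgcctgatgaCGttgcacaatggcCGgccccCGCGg
Lmo7: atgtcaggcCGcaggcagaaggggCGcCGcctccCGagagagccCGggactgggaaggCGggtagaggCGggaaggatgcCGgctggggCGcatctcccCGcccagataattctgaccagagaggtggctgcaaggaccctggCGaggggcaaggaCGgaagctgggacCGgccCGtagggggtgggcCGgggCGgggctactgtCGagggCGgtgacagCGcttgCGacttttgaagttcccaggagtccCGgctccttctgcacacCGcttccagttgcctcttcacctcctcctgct
They hold 13, 8, 37 and 22 CpGs in that order. Of 32851 such windows in the genome, 37.9%, 48.6%, 5.58% and 23.1% hold at least as many. Gm973 and Qrfpr were taken for their p, and Zc3h18 was shown in place of Spata31 for its CpG density, so the windows do not compare the directions. The window of Spata31, also higher in Kdm2b-CXXC, holds 2 CpGs, and 85.9% of windows hold at least as many. Over the 20 promoters described next, the measured interval held 1 to 51 CpGs, with 51 at both Zc3h18 and Fbxo10, which is higher in Kdm2a-CXXC.

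Gm973, a predicted gene on chromosome 1 (chr1:59516064-59516463), had the smallest p. Its values were 43.1, 50.2 and 56.2 RPM in untreated and 58.5, 63.1 and 67.6 in treated Kdm2a-CXXC cells, and 50.7, 58.4 and 59.8 in untreated and 34.9, 31.3 and 39.5 in treated Kdm2b-CXXC cells. Treated libraries were all above the untreated ones in the first line and all below them in the second. The difference between responses was 1.00 ± 0.22 (SE; 95% interval 0.58 to 1.43, adjusted p = 0.126, limma). Qrfpr, the receptor of the neuropeptide QRFP (chr3:36222076-36222475), went from 17.1, 21.8 and 19.8 to 37.7, 28.0 and 39.3 in Kdm2a-CXXC. Its Kdm2b-CXXC values went from 27.7, 27.2 and 31.5 to 20.9, 12.9 and 25.6. The groups overlapped in neither line, and the difference was 1.36 ± 0.31 (adjusted p = 0.126).

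Sox2ot is a long non-coding RNA gene whose transcription unit spans Sox2, a core pluripotency factor, and the promoter measured (chr3:34560181-34560580) is 1 of its starts. It had 3.59, 4.96 and 7.27 RPM before and 10.4, 11.4 and 9.82 after tamoxifen in Kdm2a-CXXC cells. In Kdm2b-CXXC cells it had 23.4, 19.9 and 20.8 before and 11.3, 7.96 and 11.6 after. The lines differed before treatment, and the treated libraries of both lay between them, at 7.96 to 11.6. The difference between responses was 1.92 ± 0.44 (adjusted p = 0.126), on low read levels. The promoter of Sox2 itself had a change of 0.03 in Kdm2a-CXXC and of −0.01 in Kdm2b-CXXC.

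Prss38, a serine protease gene, had a change of 0.55 in Kdm2a-CXXC and −0.48 in Kdm2b-CXXC (difference 1.02 ± 0.25, adjusted p = 0.259), and Hsh2d, an adaptor of blood cells, had 0.31 and −0.58. Fbxo10, an F-box subunit of a ubiquitin ligase, and Faap24, a component of the Fanconi anaemia DNA repair machinery, had the smallest differences of the 10, 0.62 ± 0.16 and 0.56 ± 0.15. Ripor2, a regulator of cell polarity, and Pla2g4f, a cytosolic phospholipase, had differences of 1.13 ± 0.30 and 1.48 ± 0.40. Clip4, of a family of microtubule-binding proteins, had 2.19 ± 0.59, the largest of the 10 and the least certain, on 1.31, 3.48 and 3.10 RPM in treated Kdm2b-CXXC libraries. Adjusted p over the 10 ran from 0.126 to 0.401.

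**Figure D2:**
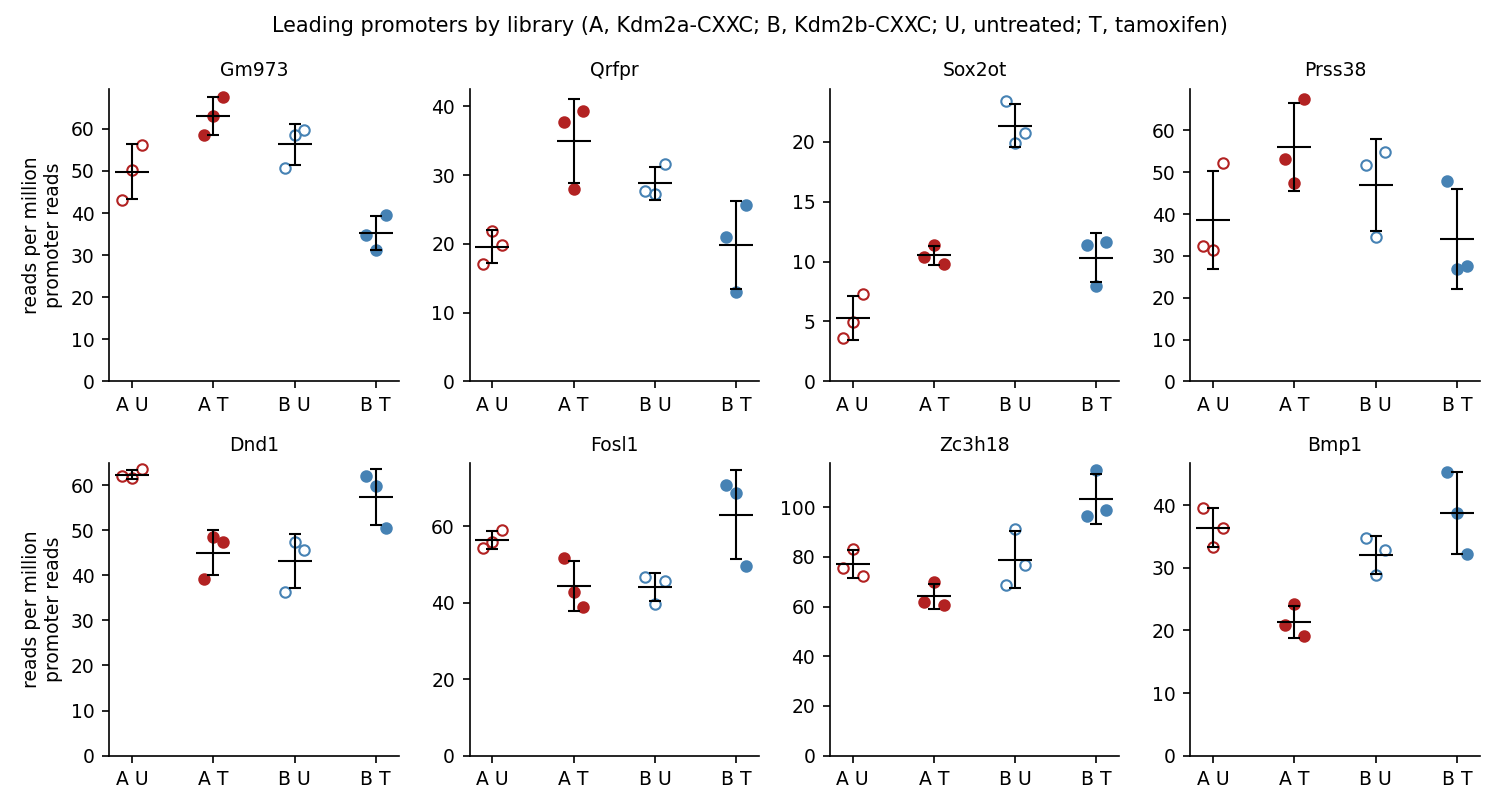
Reads per 1000000 promoter reads (RPM) in each library at 8 of the promoters with the smallest p, untreated and tamoxifen-treated in each line, with the mean and SD of 3 libraries. At Gm973 the treated libraries lie at 58.5 to 67.6 in Kdm2a-CXXC and at 31.3 to 39.5 in Kdm2b-CXXC, and at Dnd1 the order of the lines is the reverse.

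In the other direction, Dnd1 had the smallest p. It encodes an RNA-binding protein required by germ cells. Kdm2a-CXXC cells had 61.9, 61.5 and 63.4 RPM before tamoxifen and 39.2, 48.4 and 47.5 after it. In Kdm2b-CXXC the values were 36.3, 47.5 and 45.7 before and 61.9, 59.7 and 50.4 after. The treated libraries were all lower in the first line and all higher in the second, with a difference of −0.87 ± 0.21 (95% interval −1.29 to −0.45, adjusted p = 0.259). Fosl1, which encodes the AP-1 subunit FRA1 (chr19:5447498-5447897), had 54.3, 55.9 and 59.0 and then 51.6, 42.7 and 38.7 in Kdm2a-CXXC. Its values in Kdm2b-CXXC were 46.8, 39.8 and 45.7 and then 70.7, 68.6 and 49.6. The groups did not overlap in either line, and the difference was −0.84 ± 0.22 (adjusted p = 0.353).

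Zc3h18, a zinc finger protein that links the nuclear cap-binding complex to RNA decay (chr8:122376416-122376815), lay on a promoter with 51 CpGs in 400 bp. Its change was −0.26 in Kdm2a-CXXC and 0.39 in Kdm2b-CXXC, a difference of −0.65 ± 0.17. Bmp1, a protease that processes procollagen, had −0.75 and 0.26. Pak6, a kinase of the PAK family, had −0.48 and 0.58. Vstm4, a membrane protein, and Elmo3, an adaptor of cell engulfment and motility, had differences of −1.09 ± 0.31 and −0.64 ± 0.18. Spata31, of a multicopy family of spermatogenesis genes, had −1.70 ± 0.47 at 6.94, 1.42 and 3.27 RPM in treated Kdm2a-CXXC cells. Reads that map equally to several copies would have been removed as multiply mapped. Adjusted p over these 10 promoters ran from 0.259 to 0.484.

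The rule that picked the 20 promoters used both lines, so their separation within a line is a description. Libraries did not overlap in Kdm2a-CXXC at 7 of the 10 higher and 8 of the 10 lower promoters, and in Kdm2b-CXXC at 6 and 8. CpG-rich promoters made up 4 and 6 of the 10, against 66.4% of all tested. The median number of CpGs per interval was 17 in the first and 32 in the second group, against 29 over all tested promoters.

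The Kdm2a/b-CXXC line, which the rule did not use, loses both domains. Of the 10 promoters higher in Kdm2a-CXXC than in Kdm2b-CXXC, 7 were lower and 3 higher after tamoxifen in Kdm2a/b-CXXC, with a median change of −0.14. Of the 10 in the other direction, 8 were higher and 2 lower, with a median of 0.28. In both sets most promoters thus had the sign of the Kdm2b-CXXC change. In Kdm2a/b-JmjC, 6 of the first 10 were lower and 6 of the second 10 higher, with medians of −0.06 and 0.09. Over all tested promoters the median change was −0.0044 in Kdm2a/b-CXXC and 0.0013 in Kdm2a/b-JmjC. Kdm2a/b-CXXC was derived from Kdm2b-CXXC cells and not from Kdm2a-CXXC cells, and the shared origin and the shared deletion of the Kdm2b domain cannot be told apart.

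**Figure D3:**
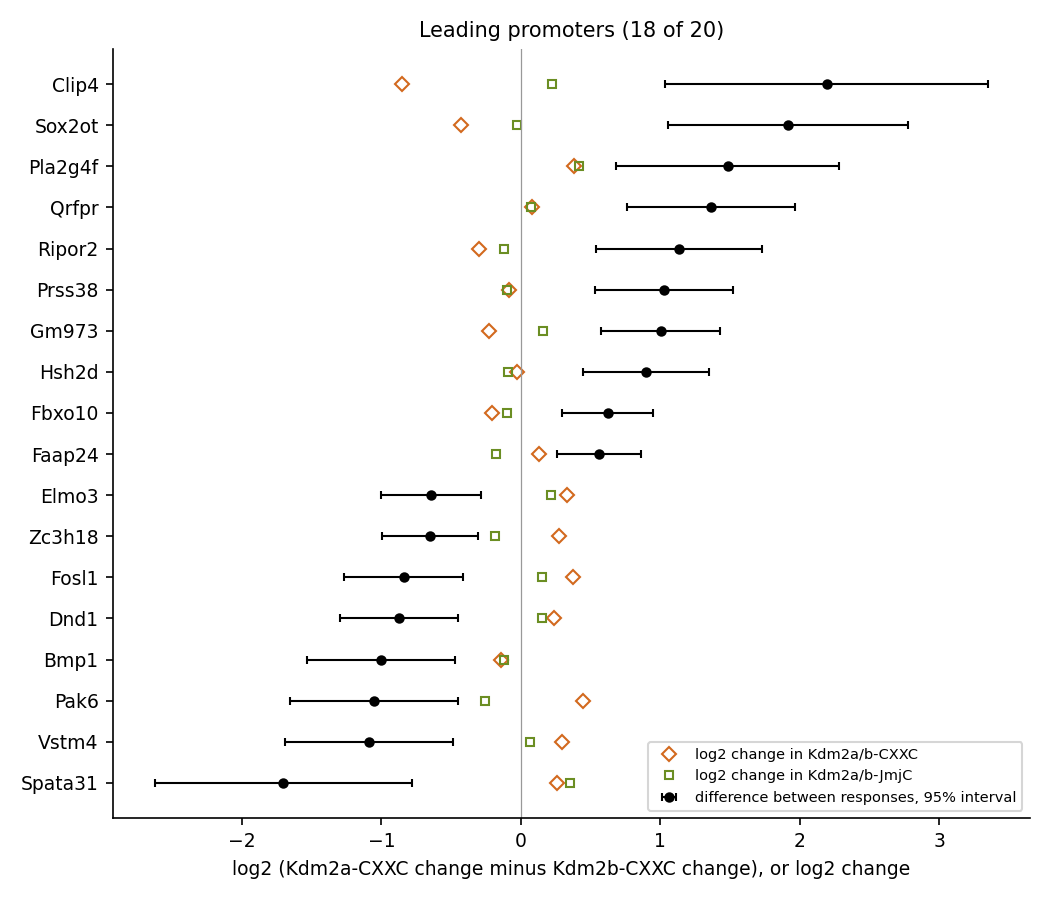
Difference between responses on the log2 scale with its 95% interval for 18 of the 20 promoters, with the change of each after tamoxifen in Kdm2a/b-CXXC (diamonds) and in Kdm2a/b-JmjC (squares). The intervals lie to the right of 0 for 10 promoters and to the left for 8, as the choice by p fixes, and 7 of the upper 10 diamonds lie below 0 while 7 of the lower 8 lie above it.

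Promoters that might respond to 1 paralogue only were also sought directly, as those with an unadjusted p under 0.01 in 1 line, a change of less than 0.1 in size in the other, and an unadjusted p under 0.01 for the difference. There were 0 such promoters higher and 8 lower in Kdm2a-CXXC, and 5 higher and 4 lower in Kdm2b-CXXC, of 16957 tested. Among those lower in Kdm2a-CXXC was Hhip, a membrane protein that binds and restrains Hedgehog ligands (chr8:80057809-80058208). It had 24.7, 23.1 and 23.8 RPM before and 12.4, 12.8 and 14.2 after tamoxifen in Kdm2a-CXXC cells. In Kdm2b-CXXC cells it had 30.0, 36.9 and 33.2 before and 33.1, 38.8 and 34.5 after. The groups were well apart in the first line and overlapped in the second (difference −0.91 ± 0.30, adjusted p = 0.589). The criteria chose promoters for such a pattern, so it is a description here and at the promoters below. Adgrg2, an adhesion G protein-coupled receptor on the X chromosome, had a change of −1.003 ± 0.23 in Kdm2a-CXXC and −0.04 in Kdm2b-CXXC. Alg10b, a glucosyltransferase that completes the precursor of N-linked glycans, had −0.62 ± 0.14 and 0.03.

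In Kdm2b-CXXC the promoters that were higher included Txn2, the mitochondrial thioredoxin (0.43 ± 0.10 against −0.05 in Kdm2a-CXXC) and Acp5, an acid phosphatase of osteoclasts (1.13 ± 0.29 against −0.05). The promoters that were lower included Olfml1, an olfactomedin-like secreted protein (−1.04 ± 0.26 against −0.08), Rpl6, a protein of the large ribosomal subunit (−0.51 ± 0.15 against 0.09), and Lmo7. Apart from Lmo7, none had an adjusted p under 0.05 in its own line.

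Lmo7 encodes a LIM domain protein of cell junctions, and its promoter (chr14:101729728-101730127) was the single one to pass the test in either line. It had 77.6, 70.6 and 75.5 RPM in untreated and 50.2, 49.7 and 52.7 in treated Kdm2b-CXXC cells, a fall by 0.54 ± 0.10 on the log2 scale (adjusted p = 0.00346, limma). In Kdm2a-CXXC it had 239.7, 234 and 244 before and 227, 222 and 226 after tamoxifen. All treated libraries were lower there too, by a change of −0.09 ± 0.10 that did not pass the test. The difference between responses was 0.46 ± 0.14 (95% interval 0.18 to 0.73, adjusted p = 0.547), so a fall particular to Kdm2b-CXXC was not shown. The untreated level was higher in Kdm2a-CXXC than in Kdm2b-CXXC in every library, although the tables of the lines were normalised separately. The call in Kdm2b-CXXC held in 22 of 25 alternatives and was lost on the spike-in scale, with DESeq2 and with all 26 libraries in the fit, with adjusted p up to 1.000, while its change stayed between −0.58 and −0.45 under each of the 25. In Kdm2a/b-CXXC the promoter had 79.0 ± 14.8 before and 68.1 ± 7.96 after tamoxifen (SD, n = 4), a change of −0.20.

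The promoters of the targeted genes lie outside the deleted exons, so they do not check the deletions. Kdm2a had 67.3, 69.1 and 70.3 RPM before and 87.3, 75.4 and 66.5 after tamoxifen in Kdm2a-CXXC, and a difference between responses of 0.21 ± 0.18 (adjusted p = 0.918). Kdm2b has 2 annotated starts. The downstream one (chr5:122900151-122900550) had a difference of 0.06 ± 0.17 (adjusted p = 0.979). The upstream one (chr5:122988900-122989299) had 13.0, 10.9 and 12.9 before and 19.3, 17.1 and 16.9 after tamoxifen in Kdm2a-CXXC. The Kdm2b-CXXC libraries had 26.5, 22.3 and 25.7 before and 21.4, 20.4 and 20.5 after. Treated libraries were higher in the first line and lower in the second without overlap, and untreated Kdm2b-CXXC libraries were all above untreated Kdm2a-CXXC ones. The difference was 0.75 ± 0.34 (adjusted p = 0.798). Fbxl20, an F-box protein of the same family, and Fosl2, an AP-1 subunit, had differences of −0.24 ± 0.16 (adjusted p = 0.894) and −0.11 ± 0.30 (adjusted p = 0.979).

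Gene lists were read by their counts and medians, beside 3.04% of all promoters with an unadjusted p under 0.05 and higher in Kdm2a-CXXC, 2.98% higher in Kdm2b-CXXC and a median of 0.0012. No member of any list passed the adjusted test for the difference. Among 16 lists the median difference was farthest from 0 for CDK inhibitors and p53 pathway genes (−0.13), then for naive pluripotency factors and developmental transcription factors (0.11 and −0.11). Naive pluripotency factors are the transcription factors that hold mESCs in their ground state. Their 15 tested promoters had a median change of 0.02 in Kdm2a-CXXC and −0.22 in Kdm2b-CXXC, and a median difference of 0.11, with 12 above 0 and 3 below. At an unadjusted p under 0.05, 4 were lower and 0 higher in Kdm2b-CXXC, where 3.6% and 3.26% of all promoters were. These were Nr5a2 (−0.54), Prdm14 (−0.49), Tfcp2l1 (−0.27) and Klf5 (−0.22), against −0.07, 0.10, −0.02 and −0.06 in Kdm2a-CXXC. For the difference, 3 were higher (Nr5a2, Prdm14 and 1 start of Esrrb) and 1 lower. The lower one was Pou5f1, the gene of OCT4, with 46.2, 32.7 and 38.4 RPM before and 32.7, 29.9 and 19.6 after tamoxifen in Kdm2a-CXXC. Its change was −0.52 ± 0.17 in Kdm2a-CXXC and 0.13 ± 0.17 in Kdm2b-CXXC. Treated and untreated libraries of this promoter overlapped in both lines. In Kdm2a/b-CXXC it had 42.7 ± 6.41 before and 30.8 ± 5.45 after (SD, n = 4), a change of −0.46, which has the sign of the Kdm2a-CXXC change and not of the Kdm2b-CXXC change. The naive list thus held members of both signs.

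Prdm14, a regulator of naive pluripotency and germ cell fate, had 57.3, 49.9 and 45.7 RPM before and 41.9, 28.4 and 38.4 after tamoxifen in Kdm2b-CXXC. In Kdm2a/b-CXXC it had 44.2 ± 1.61 before and 26.4 ± 6.51 after (SD, n = 4), a change of −0.75. In Kdm2a-CXXC it had 24.2, 20.2 and 25.5 and then 30.8, 22.3 and 22.4, and the groups overlapped. Otx2, a homeobox factor of the formative state that follows naive pluripotency, showed a like order at 1 of its starts, chr14:48662673-48663072. Its values were 40.9, 38.5 and 42.7 before and 26.2, 22.4 and 27.5 after tamoxifen in Kdm2b-CXXC, without overlap. In Kdm2a/b-CXXC they were 35.9 ± 7.16 and 17.8 ± 7.45 (SD, n = 4), a change of −1.04. In Kdm2a-CXXC the change was −0.0010 with a standard error of 0.19. The other 2 tested starts of Otx2 did not show this order, with changes of −0.22 and −0.03 in Kdm2a-CXXC against −0.13 and −0.02 in Kdm2b-CXXC, and of −0.40 and −0.95 in Kdm2a/b-CXXC. The differences between responses were 0.59 ± 0.27 (adjusted p = 0.798) for Prdm14 and 0.67 ± 0.27 (adjusted p = 0.743) for Otx2. The 18 tested promoters of formative and primed state genes had medians near 0 in both lines, −0.02 in Kdm2a-CXXC and −0.03 in Kdm2b-CXXC. At an unadjusted p under 0.05, 1 had a higher difference, this start of Otx2, and 1 a lower one, Dnmt3a, a DNA methyltransferase (−0.59 ± 0.30, adjusted p = 0.815).

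Developmental transcription factors, whose CpG islands are known Polycomb targets in mESCs, had a median difference of −0.11 over 52 tested promoters, with 0 higher and 1 lower at an unadjusted p under 0.05. That promoter was Sox1, a neural factor, with changes of −0.25 and 0.23. Hox genes (41 tested), which set position along the body axis, had a median difference of −0.02, with 1 lower, Hoxd10. The promoters of the PCGF1 complex itself (12 tested) had a median of 0.03 and those of PRC2 and canonical PRC1 subunits (21 tested) 0.0067. The promoters of genes for ZF-CxxC domain proteins, Kdm2a and Kdm2b included, had a median of −0.0085 over 12, with 1 higher, the upstream Kdm2b start.

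CDK inhibitors, which restrain the cell cycle, and p53 pathway genes had a median change of −0.11 in Kdm2a-CXXC and 0.08 in Kdm2b-CXXC over 15 promoters. Their median difference was −0.13, with 5 above 0 and 10 below. At an unadjusted p under 0.05 the difference was higher at 0 and lower at 2, Ccng1, a p53 target (−0.29 ± 0.12), and Bbc3, the pro-apoptotic factor PUMA (−0.39 ± 0.17). Wnt/beta-catenin targets (18 tested) had a median difference of −0.09, with 1 higher, Dkk1, and 2 lower, Axin2 (−0.36 ± 0.14) and Tcf7 (−0.62 ± 0.28). Both Axin2 and Dkk1 encode feedback inhibitors of the pathway and they had opposite signs. RNA polymerase I and nucleolar genes (16 tested) had 2 higher, Npm1 (0.23 ± 0.11) and Ubtf (0.42 ± 0.21), and a median of 0.05. Ribosomal protein genes (62 tested) had a median of 0.06 with 2 higher, Rpl6 and Rpl28 (0.29 ± 0.14).

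The remaining lists had at most 1 promoter under an unadjusted p of 0.05. NF-kappaB pathway genes (18 tested) had a median difference of −0.05 with Birc3, an inhibitor of apoptosis, higher (0.69 ± 0.30). Circadian clock genes (21 tested) had 0.06 with Rora, a nuclear receptor, higher (0.46 ± 0.23). H3K36 methyltransferases and demethylases (13 tested) had 0.06, with the upstream Kdm2b start as the single higher promoter. Heterochromatin proteins (13 tested) had −0.04 and germline genes (18 tested) 0.10, with none in either direction.

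**Figure D4:**
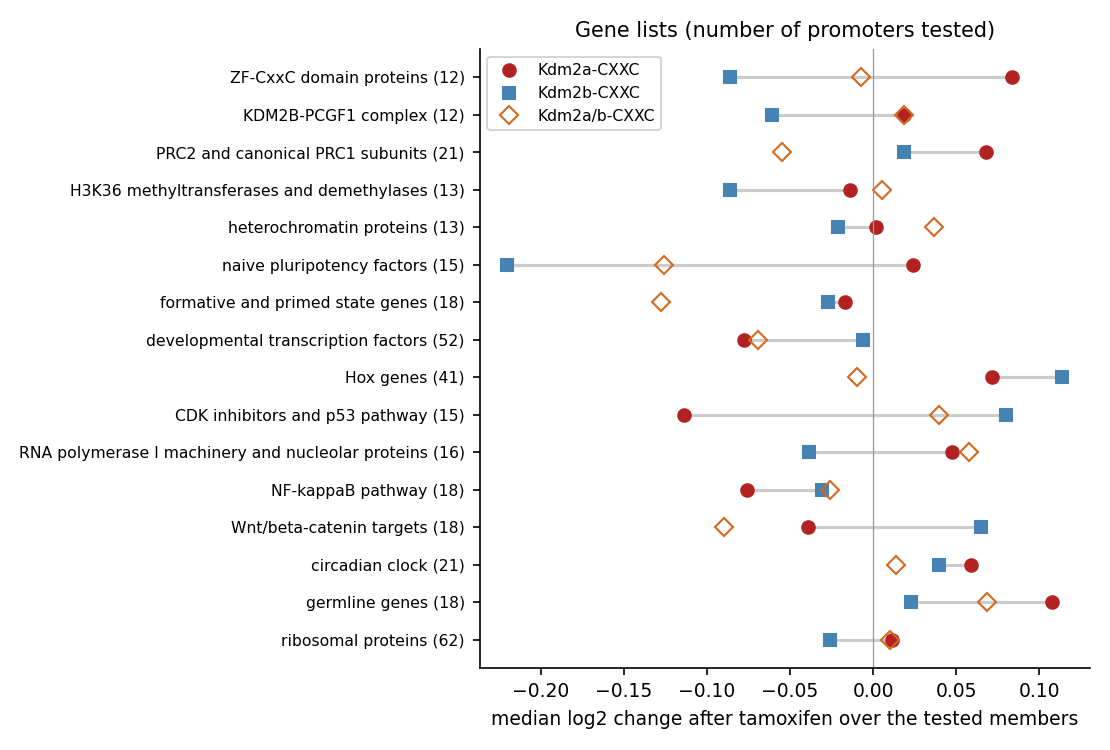
Median log2 change after tamoxifen over the tested promoters of 16 gene lists in Kdm2a-CXXC (circles), Kdm2b-CXXC (squares) and Kdm2a/b-CXXC (diamonds), with the number of promoters in brackets. All medians lie between −0.22 and 0.11, and the longest line between a circle and a square is that of the naive pluripotency factors.

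Base composition accompanied the response more in Kdm2a-CXXC than in Kdm2b-CXXC, but not beyond the spread between libraries. The median log2 level of CpG-rich minus that of other promoters was 2.24 to 2.26 in untreated and 2.14 to 2.22 in treated Kdm2a-CXXC libraries, a change of −0.08 with no overlap (exact two-sided p = 0.1, the smallest possible). In Kdm2b-CXXC it was 2.06 to 2.14 and 2.00 to 2.13, a change of −0.02 (exact p = 0.8). The difference between lines was −0.06 (exact permutation p = 0.32). The slope of log2 level on the GC fraction changed by −0.56 and −0.20 (exact p = 0.1 and 0.5), a difference of −0.36 (exact permutation p = 0.385). At the 11253 CpG-rich promoters the median difference between responses was −0.0083, with 278 higher and 366 lower at an unadjusted p under 0.05. At the 5704 others it was 0.03, with 237 higher and 139 lower. Kdm2a/b-JmjC had a GC slope change of −0.64 and a CpG-rich minus other change of −0.08, and Kdm2a/b-CXXC had −0.12 and 0.01. The slope was 7.52 to 7.97 in untreated and 7.01 to 7.09 in treated Kdm2a/b-JmjC libraries. In Kdm2a/b-CXXC it was 6.98 to 7.51 and 6.28 to 7.47, with overlap. The cause of these changes in base composition was not tested.

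The summed promoter signal of markers of other cell types was also read. Fibroblast markers (10 promoters, 7 tested) summed to 108 to 112 RPM in untreated and 118 to 138 in treated Kdm2a-CXXC libraries, and to 106 to 126 and 129 to 153 in Kdm2b-CXXC. Treated libraries were higher without overlap in both lines (exact p = 0.1 each), and a difference between the lines was not shown (exact permutation p = 0.615). Most of these promoters had low levels, with a median of 6.17 RPM. Tested promoters in the quintile of lowest mean level (5.00 to 16.9 RPM) also had median changes above 0, of 0.10 in Kdm2a-CXXC and 0.05 in Kdm2b-CXXC. Fbln2 (36.8 RPM), Thy1 (32.0) and Col1a2 (17.9) had the highest levels of the fibroblast markers and lay in the next quintile (17.0 to 39.2 RPM). Median changes of that quintile were −0.003 for Kdm2a-CXXC and −0.010 for Kdm2b-CXXC. Whether a drift with level accounts for the higher sums was not tested. Markers of primitive endoderm (13 promoters), trophoblast (8) and mESCs (6) gave exact p values of 0.565, 0.785 and 0.525 for the difference. The mESC markers summed to 302 to 392 RPM in all 12 libraries. These are accessibilities and not RNA levels, so they do not by themselves give the makeup of the cultures, and in bulk chromatin a change in every cell and a change in the mixture of cells cannot be told apart. Their part in the differences above was not tested.

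The 2 responses were then read in the lines that their choice had not used, a comparison added after the values had been seen and given without a test. Promoters with an unadjusted p under 0.05 in Kdm2b-CXXC numbered 552 higher (3.26%) and 611 lower (3.6%). In Kdm2a/b-CXXC, 66.3% of the former were higher after tamoxifen and 68.6% of the latter lower, where 49.1% of all tested promoters were higher and 50.9% lower. The median changes there were 0.08 and −0.10. A score per library, the median level of the former minus that of the latter after each promoter was centred within the line, was −0.094 ± 0.017 in untreated and 0.094 ± 0.027 in treated Kdm2a/b-CXXC cells (SD, n = 4 each). The untreated libraries lay between −0.113 and −0.078 and the treated ones between 0.066 and 0.130, without overlap. Leaving out each library in turn gave changes of 0.176 to 0.198.

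Promoters with an unadjusted p under 0.05 in Kdm2a-CXXC, 569 higher (3.36%) and 615 lower (3.63%), gave smaller values in Kdm2a/b-CXXC. There 56.8% of the former were higher and 56.7% of the latter lower, and the score changed by 0.062, or 0.036 to 0.078 with 1 library left out. The same promoters gave 0.047 in Kdm2b-CXXC and 0.070 in Kdm2a/b-JmjC, and treated libraries lay above untreated ones without overlap in all 3 of these lines. The promoters chosen in Kdm2b-CXXC gave 0.044 in Kdm2a-CXXC and 0.037 in Kdm2a/b-JmjC, with overlapping libraries in both. The 2 sets differed in base composition, since the promoters higher in Kdm2a-CXXC had a median GC content of 58.2% and those lower 66.5%, against 61.0% and 62.8% for Kdm2b-CXXC and 62.8% over all. With GC content and level regressed linearly out of each library, the score of the Kdm2b-CXXC promoters changed by 0.184 in Kdm2a/b-CXXC and that of the Kdm2a-CXXC promoters by 0.053. In Kdm2a/b-JmjC the Kdm2a-CXXC promoters then changed by 0.034, with overlapping libraries, and in Kdm2b-CXXC by 0.038, without overlap. The promoters were chosen before this step, and the part of base composition in these changes was not tested. Across all promoters, Pearson's r with the Kdm2a/b-CXXC change was 0.179 for Kdm2b-CXXC and 0.075 for Kdm2a-CXXC, and 0.173 for the sum of both changes. Kdm2b-CXXC and Kdm2a/b-CXXC share both the Kdm2b deletion and their origin, whose parts were not told apart.

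**Figure D5:**
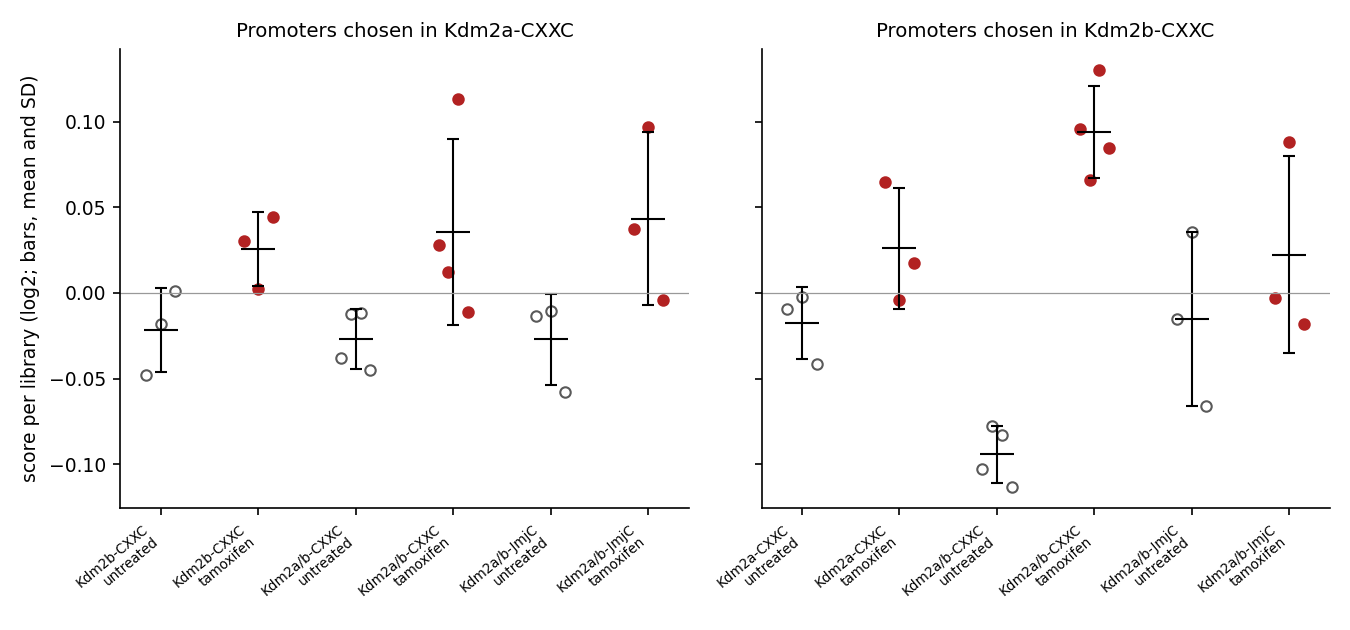
Score per library, on the log2 scale, of promoters chosen in Kdm2a-CXXC or Kdm2b-CXXC at an unadjusted p under 0.05 and read in the other lines, untreated and tamoxifen-treated, with the mean and SD of each group. The Kdm2b-CXXC promoters read in Kdm2a/b-CXXC are the most separated, at −0.113 to −0.078 before and 0.066 to 0.130 after tamoxifen.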

How the data were processed

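The 12 libraries are calibrated ATAC-seq of Kdm2a-CXXC and Kdm2b-CXXC mESCs, grouped from the sample labels alone. The authors aligned paired-end reads with Bowtie2 to mm10 and dm6 together, removed multiply mapped reads and PCR duplicates, and counted reads over promoters. Each deposited column is a signal, the reads of a promoter divided by the spike-in size factor of the library, one table per line. The deposited fold changes, standard errors and p-values were not used. The steps between values gave whole reads back for 100% of values (tolerance 0.01), with size factors of 0.718 to 1.41 in the 12 libraries.

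Reads were scaled to 1000000 promoter reads per library (RPM). Promoters with a mean of at least 5 RPM were fitted with limma 3.58.1 (R 4.3.3, mean-variance trend) on log2(value + 1), all 12 libraries in one fit, with the contrasts of treated minus untreated in each line and their difference. Calls needed an adjusted p (Benjamini-Hochberg) under 0.05 and over 1.4-fold. For a single value per library, treatment was permuted within line in an exact two-sided test. edgeR 4.0.16 and DESeq2 1.42.0 on the whole reads, other scalings, pseudocounts and filters, array weights, all 26 ATAC libraries, the replicate number as a block and leaving out each library were alternatives. The fit was tested on simulated data. Duplicates were removed without molecular identifiers. Replicates of a group had r of 0.956 to 0.971 and differed by more than counting noise.

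Named promoters were Kdm2a, Kdm2b, Fbxl20 and Fosl2, the 10 with the smallest p for the difference in each direction, up to 3 per line and direction that met the criteria for a response in 1 line, and up to 2 per gene list with the smallest p for the difference under 0.05. Lmo7 is among the third kind and was also named as the 1 called promoter, and other list members are named where they were counted. Some promoters that the rule names are not reported here. The promoters, lists and tests were chosen with earlier results of these data known. Symbols were matched by RefSeq identifier for 99.1% of promoters. Coordinates are mm10 (GRCm38.p6) and 1-based. Of the 20 leading promoters 13 had a sequence window. The libraries of input genomic DNA were not analysed here, and the labels give no batch.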

Additional observations from a re-analysis of the deposited data

Results flagged for a closer look

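In groups of 4 libraries a sample was noted by Dixon's test, from its gap to the nearest other sample divided by the range of the group. This ratio had to exceed the 95% critical value, which chance gives in about 1 of 20 groups. The Fbxo10 promoter had 70.3 RPM in untreated Kdm2a/b-CXXC replicate 4, against 83.3 to 86.0 in the other 3 libraries. The Clip4 promoter had 1.52 RPM in tamoxifen-treated Kdm2a/b-CXXC replicate 2, against 6.51 to 7.25 in the other 3. Both promoters are among the 20 described above, and these libraries entered neither the difference between responses nor its test.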

How the results depend on the processing

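The count of promoters with a difference between responses was 0 under each alternative but the replicate block, which gave 2 (Gm973 and Qrfpr), and leaving out single libraries, which gave 0 to 3. The count for Kdm2a-CXXC was 1 under the replicate block and 0 to 3 with a library left out. The count for Kdm2b-CXXC was 0 on the spike-in scale, with DESeq2 and with all 26 libraries, 2 with edgeR, 3 with a pseudocount of 0.5, with array weights by line and with the replicate block, and 1 to 4 with a library left out. On the promoter-total scale, deviations of same-numbered libraries correlated at −0.010 to 0.062, and those of different-numbered libraries at −0.059 to 0.023. Replicate numbers thus showed little pairing on that scale, while the calibrated totals ranked replicates alike in both treatments of each line. On the spike-in scale the unadjusted p was under 0.05 at 296 promoters for the difference, and the differences of Kdm2a (−0.071), the downstream Kdm2b start (−0.216) and Npm1 (−0.049) changed sign. With a library left out, the downstream Kdm2b start ran from −0.021 to 0.158, below 0 without Kdm2a-CXXC untreated replicate 1 or tamoxifen replicate 3, and Fosl2 from −0.316 to 0.021, above 0 without untreated replicate 1 or tamoxifen replicate 2 of that line. The CpG-rich minus other difference ran from −0.09 to −0.03 and the GC slope difference from −0.53 to −0.16 with a library left out. With promoters chosen at an unadjusted p under 0.01, the score change in Kdm2a/b-CXXC was 0.121 for Kdm2a-CXXC and 0.234 for Kdm2b-CXXC promoters, an alternative chosen after seeing the data, with a library left out giving 0.036 to 0.078 and 0.176 to 0.198 at 0.05. The cause of these changes was not tested. The replicate spread, of which counting error made up 45.0% to 48.4% of the variance, gave the difference of a single promoter a median half-width of 0.43.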
